A study of Homo sapiens with 32 samples.

Results

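The transcripts of 83 ZNF zinc finger genes were followed in HEK293 cells incubated with 4-thiouracil, out of 519 gene symbols of that form in a table of 32738 entries. The members were chosen by symbol (the letters ZNF, a number and at most 1 further letter) and by their counts, at least 400 when summed over all 32 libraries. Of the other symbols, 366 had 1 to 399 counts and 70 had 0. Because 6 of the 8 cultures were taken after incubation and the 0 min cultures held 23% of all counts, a gene high at the later times reached 400 counts more easily. Counts and medians over the members are therefore descriptions of a list chosen on level. ZNF428, with 400 counts, and ZNF821 and ZNF620, with 404 counts each, lay just inside the limit, while ZNF286B with 387, ZNF614 with 368 and ZNF790 with 365 counts lay just outside.

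HEK293 is a human embryonic kidney cell line, and 4-thiouracil is a uracil analogue that enters RNA while it is being made. The cells, for which no transgene or other agent is named, were sampled at 0, 5, 15 and 30 min of incubation, with 2 biological replicates (called cultures here) per time, each split into 2 cDNA preparations of 2 libraries. The labels name polyadenylated RNA, and they refer to published transient transcriptome and tagged reverse transcription protocols. They do not say whether thiolated RNA was purified or what the 0 min cells received, so a difference from 0 min compares counted RNA pools whose make-up cannot be told apart from a change in the cells. Whether the cultures were grown separately is not stated beyond the replicate number, and p-values measure only the spread between these samples.

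Summed counts per culture ranged from 776871 to 1396056. All 83 members passed the filter on low counts and entered the test of 10439 genes. Of 6 HEK293 markers in the table, VIM had 2814 and LIN28B 1122 counts while PAX2 had 5, and the 6 summed to 325 to 686 counts per culture. Of 6 markers of blood, liver, connective tissue and glia, 4 were at 0 and all of them together summed to 0 to 2 counts per culture. In bulk RNA, fewer cells of a type and less RNA per cell cannot be told apart.

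Zinc finger proteins of the Cys2-His2 kind carry short units in which a pair of cysteines and a pair of histidines hold a zinc ion, and arrays of such units read DNA. Many human ZNF proteins also carry a KRAB domain, which binds the corepressor TRIM28 and through it brings SETDB1 and HP1 proteins to chromatin, often at transposable elements. Their genes lie in large part in clusters on chromosome 19. Other proteins with the ZNF symbol act in RNA processing, ribosome assembly or cell division.

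A finger of 6 members is shown to set factors with an array of linked fingers beside proteins with 1 or 2 fingers, all of them discussed below. Each line gives the coding strand 5′ to 3′ from the GENCODE 29 transcripts, and capitals mark the codons of the paired cysteines and histidines. The first 4 stretches, of 78 bases, are the earliest finger that is followed by the linker joining neighbouring fingers, which need not be the protein's first finger, and they end with that linker. Those of ZNF821 and ZNF593 are the first finger matched.
ZNF12 finger: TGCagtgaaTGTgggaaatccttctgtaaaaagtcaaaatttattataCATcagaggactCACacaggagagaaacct
ZNF714 finger: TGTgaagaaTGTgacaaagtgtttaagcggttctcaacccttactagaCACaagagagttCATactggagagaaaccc
ZNF92 finger: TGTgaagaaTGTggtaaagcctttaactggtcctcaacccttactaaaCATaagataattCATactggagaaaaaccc
ZNF146 finger: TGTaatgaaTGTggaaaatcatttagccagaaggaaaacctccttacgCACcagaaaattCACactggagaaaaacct
ZNF821 finger: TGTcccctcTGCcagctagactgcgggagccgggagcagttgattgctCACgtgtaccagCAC
ZNF593 finger: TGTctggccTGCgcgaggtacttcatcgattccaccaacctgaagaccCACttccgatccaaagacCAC
ZNF714 and ZNF92 matched at 66 of 78 bases (84.6%), the closest pair among the 6 members compared (the first 4 shown, ZNF557 and ZNF689), whereas ZNF12 and ZNF714 matched at 46 bases (59%). In ZNF593 the histidine codons lie further apart, and the unit spans 23 residues, against 21 in the other 5 shown. Likeness over 78 bases does not measure shared reads, since the bases that differ between ZNF714 and ZNF92 are spread along the stretch. Reads from identical sequence can be assigned to either gene, so windows of 50 bases were compared. Windows came from each member's longest transcript, and genes whose spans overlap that of the member were left out. Of the 83 members, 37 shared no window of 50 bases with the transcripts of the remaining genes. At least 1% of windows were shared in 25 members, up to 11.8% in ZNF302. Exons of some members, such as ZNF638, ZNF207 and ZNF431, overlap a gene on the same strand, which these windows do not cover.

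A KRAB match was found in 34 members, 17 of them on chromosome 19, which holds 24 members in all. At least 1 finger was found in 77 members and at least 10 fingers in 35, with 33 in ZNF462. The linker was present in 48 members, 31 of which also had the KRAB match. No finger of the pattern was found in 6 members, ZNF330, ZNF608, ZNF609, ZNF703, ZNF704 and ZNF738. These are pattern matches in the longest annotated protein and can miss diverged domains.

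The 83 genes together took a larger share of the counted RNA at every time after 0 min. Their summed level was 3099 and 2435 CPM in the 0 min cultures, 7915 and 8649 CPM at 5 min, 9121 and 8331 CPM at 15 min, and 9131 and 9683 CPM at 30 min. The means were 2767 ± 470 CPM at 0 min and 8282 ± 519, 8726 ± 559 and 9407 ± 390 CPM at the later times (SD, n = 2 cultures each), where CPM scales a count to the total of its culture. Every later culture lay above both 0 min cultures. Those of 5 and 15 min overlapped, and both of 30 min lay above them, the nearest by 9131 against 9121 CPM. Rescaling by TMM, which sets the typical gene level between cultures, gave 4178 ± 502 CPM at 0 min and 7528 ± 477, 7701 ± 149 and 7732 ± 243 CPM later, so the distance from 0 min was smaller on that scale. An exact permutation test of 2 cultures against 2 cannot go below p = 0.333, and none was run on these sums, which the choice of members helped to fix.

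**Figure D1:**
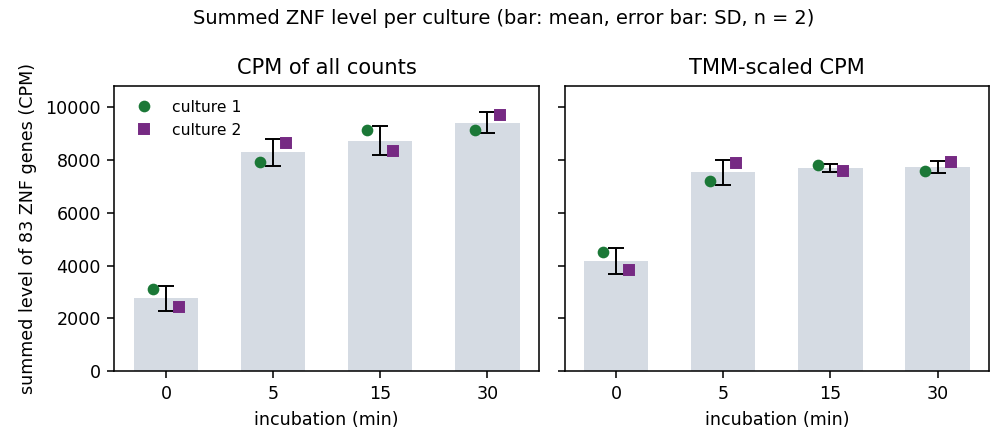
Summed level of the 83 ZNF genes in each culture (points) against incubation time in min, as CPM of all counts on the left and TMM-scaled CPM on the right; bars are means and error bars SD of 2 cultures. The 0 min cultures sit lowest on both scales, at 2435 and 3099 CPM on the left.

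The make-up of the sum also differed between times. ZNF24, a SCAN-domain zinc finger factor, was the most counted member at 0 min with 11% of the members' counts and again at 30 min with 6.65%, while ZNF638, an RNA-binding protein of nuclear speckles, was the most counted at 5 min with 7.36% and at 15 min with 5.18%. The 8 members with most counts overall held 27.9%, 31.5%, 27.7% and 29.4% of the members' counts at 0, 5, 15 and 30 min, so their share changed little while the sum rose. The mean TMM-scaled level was highest at 0 min for 8 members, at 5 min for 24, at 15 min for 31 and at 30 min for 20.

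From 0 to 5 min, 47 of the 83 members rose and 9 fell, and the test called neither for 27. The test was edgeR's quasi-likelihood F test with a threshold of 0.05 on p-values adjusted over all 10439 genes. Among all those genes, 28.7% rose and 26% fell. Sizes of single genes below are log2 fold changes with their standard error (SE). The cultures of the 2 times did not overlap for any called member. The share over all called genes was not computed, so this adds no support to the calls. The median log2 fold change was 1.04 over the members and 0.10 over all genes. At 15 min 55 rose and 6 fell, beside 29.8% and 24.6% of all genes, with medians of 1.32 and 0.19. At 30 min 56 rose and 5 fell, beside 32.1% and 23.8%, with medians of 1.28 and 0.35. The 3 comparisons share the 0 min cultures and are not independent. Scaling by total counts alone moved the median of all genes to 0.83, 0.96 and 1.22 in the 3 comparisons, and the members' median then stood 0.94, 1.13 and 0.93 above it, against 0.94, 1.13 and 0.94 with TMM. Of the falls, 2 were left in each comparison under total counts. Leaving out 1 culture gave 3 falls at 15 min (culture 1 at 15 min, or either culture at 30 min) and 3 falls at 30 min (any culture of 0, 15 or 30 min).

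Across the later times, 45 members rose at all 3, 15 rose at 1 or 2, and 4 fell at all 3 (ZNF146, ZNF330, ZNF593 and ZNF706). A further 5 fell at 1 or 2 times (ZNF24, ZNF589, ZNF721, ZNF770 and ZNF92), ZNF703 fell at 5 min and rose at 30 min, and 13 were called at no later time. The shares of all genes with these patterns over the 3 comparisons were not computed, so the pattern counts only describe the members. From 5 to 30 min 12 members rose and 3 fell, beside 5.88% and 6.52% of all genes, with medians of 0.03 for the members and -0.03 for all genes. That count of 12 was 6 without culture 1 at 5 min and 5 without culture 2 at 30 min. The 3 falls became 0 without culture 2 at 5 min, culture 2 at 15 min or either culture at 30 min, and 5 without culture 1 at 0 min.

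**Figure D2:**
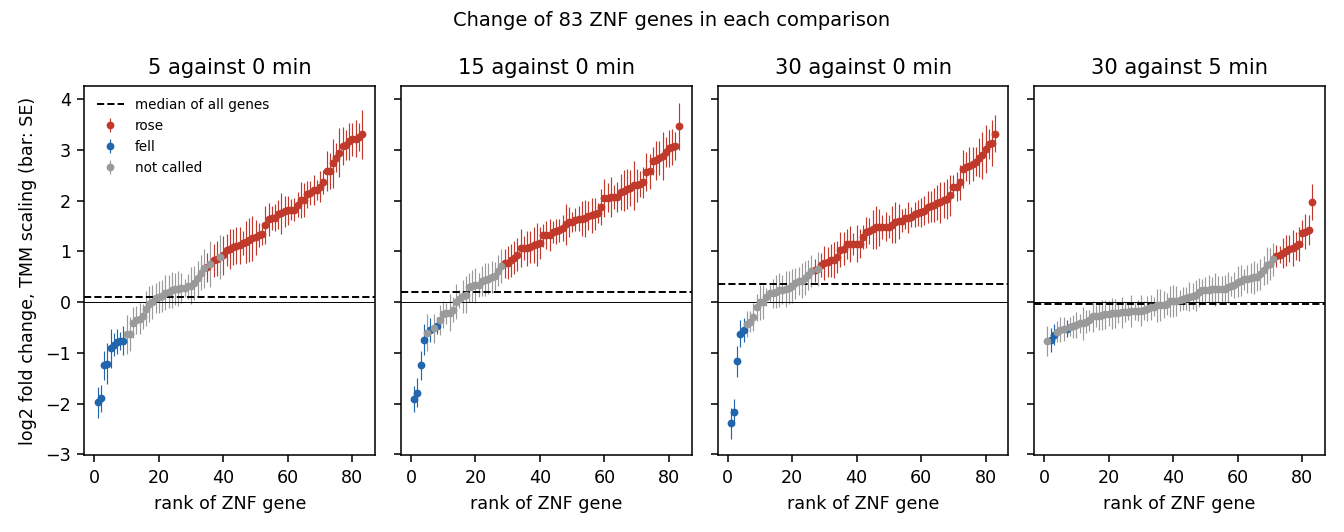
Log2 fold change of each of the 83 ZNF genes with its standard error, ranked within each of 4 comparisons; red points rose, blue points fell and grey points were not called, and the dashed line is the median of all genes tested. Most points lie above the dashed line in the comparisons with 0 min (members' medians 1.04, 1.32 and 1.28), and they centre on it from 5 to 30 min.

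The 9 highest log2 fold changes at 5 min were all in members without a KRAB match. Their proteins were from 350 to 2723 residues long, with 0 to 30 finger matches. The cut at 9 was set after the values were seen, and the highest value with a KRAB match was 2.73. ZNF821 had 4.83 and 4.63 TMM-scaled CPM at 0 min, 50.7 and 45.2 at 5 min, 53.7 and 53.3 at 15 min, and 40.2 and 38.1 at 30 min. It was low only at 0 min, with 4 and 3 counts there, and its log2 fold change was 3.30 at 5 min (SE 0.48, adjusted p = 3.49e-07) and 3.47 at 15 min (SE 0.46). Its exons overlap another gene on the opposite strand, and how strand was used in counting is not given here.
ZNF609, a nuclear regulator whose gene is also known for a circular RNA, had 16.9 and 21.6 CPM at 0 min, 171 and 192 at 5 min, 133 and 131 at 15 min, and 127 and 134 at 30 min. Its peak was at 5 min in both cultures. The log2 fold change from 0 to 5 min was 3.25 (SE 0.28, adjusted p = 9.27e-12), a 9.53-fold difference, and from 5 to 30 min it was -0.48 (adjusted p = 0.0945), which did not pass the test. The count of linear and circular forms cannot be told apart in a gene-level table.

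ZNF236 and ZNF521 are long multi-finger proteins, with 30 and 27 fingers. ZNF236 had 9.67 and 10.8 CPM at 0 min, 86.2 and 104 at 5 min, 84.0 and 87.5 at 15 min, and 58.3 and 74.4 at 30 min. ZNF521, a factor of neural and blood progenitors, had 15.7 and 10.8 CPM at 0 min, 144 and 110 at 5 min, 102 and 91.6 at 15 min, and 79.9 and 100 at 30 min. In both genes all later cultures lay above the 0 min cultures, and the log2 fold changes at 5 min were 3.22 (SE 0.36) and 3.21 (SE 0.33). ZNF800, a factor studied in pancreatic endocrine cells, had 7.25 and 17 CPM at 0 min, 118 and 94.0 at 5 min, 67.9 and 70.4 at 15 min, and 66.1 and 78.1 at 30 min, with a log2 fold change of 3.17 (SE 0.36) at 5 min. Its 5 min cultures were the highest of the gene.

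ZNF367, ZNF827 and ZNF438 stayed near their 5 min level to the end. ZNF367 had 15.7 and 6.18 CPM at 0 min (13 and 4 counts), 93.2 and 100.3 at 5 min, 114 and 73.9 at 15 min, and 123 and 108 at 30 min. Its log2 fold change at 30 min, 3.32 (SE 0.36, adjusted p = 9.07e-10), was the highest of the 83, on that base of few counts. ZNF827, which binds the NuRD complex, had 13.3 and 18.5 CPM at 0 min, 138 and 131 at 5 min, 129 and 115 at 15 min, and 148 and 127 at 30 min, a log2 fold change of 3.12 (SE 0.30) at the last time. ZNF438 was listed at 10.9 and 1.54 CPM at 0 min, again few counts, and between 40.7 and 58.8 CPM in the 6 later cultures. Its log2 fold change at 30 min was 2.89 (SE 0.47). For these 3 genes the values at 5 and 30 min did not differ beyond the test, with log2 fold changes from 5 to 30 min of 0.25 (SE 0.24), 0.03 (SE 0.20) and -0.06 (SE 0.31).

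The members with most counts give the tightest values. ZNF638 had 116 and 124 CPM at 0 min, 498 and 606 at 5 min, 435 and 370 at 15 min, and 381 and 389 at 30 min. It rose by 2.21 at 5 min (SE 0.20, adjusted p = 2.71e-11) and fell by 0.52 from 5 to 30 min (SE 0.17, adjusted p = 0.0384). ZNF148, a zinc finger factor that binds GC-rich DNA, showed the same order of calls, with means over the 4 times of 46.9 ± 14, 180 ± 22.9, 126 ± 8.63 and 116 ± 7.10 CPM, and a log2 fold change from 5 to 30 min of -0.64 (SE 0.20, adjusted p = 0.0311). ZNF326, a component of a complex that couples RNA polymerase to splicing, was the third gene to fall between those times, by 0.75 (SE 0.24, adjusted p = 0.035), and it was called at no time against 0 min. All 3 of these falls were lost with total counts and with no filter on low counts.

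ZNF644, a partner of the methyltransferases EHMT1 and EHMT2, had 147 and 97.3 CPM at 0 min and 343 to 451 CPM in every later culture, with log2 fold changes of 1.82, 1.58 and 1.65 at 5, 15 and 30 min (SE 0.20 each). ZNF804A, known from genetic studies of psychiatric disease, had 55.6 and 37.1 CPM at 0 min and 177 to 248 CPM later, with log2 fold changes of 2.36, 2.07 and 2.28 (SE 0.23 each). ZNF292, a large protein with 3 finger matches, had 14.5 and 34.0 CPM at 0 min and 144 to 219 CPM later, with its largest log2 fold change, 3.08 (SE 0.28), at 15 min. ZNF131, which carries a BTB domain, rose by 1.82, 1.63 and 1.61 (SE 0.23 each). None of these 4 passed the test from 5 to 30 min.

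ZNF207, a microtubule-binding protein that acts at kinetochores, was the one among the 8 most counted members that was called at no time against 0 min. Of the others, 6 rose at all 3 times, and ZNF24 fell at 5 and 15 min. It had 276 and 273 CPM at 0 min, 303 and 362 at 5 min, 261 and 312 at 15 min, and 270 and 316 at 30 min. The cultures of 0 min lay inside the range of the 15 and 30 min cultures, and the log2 fold changes were 0.28, 0.06 and 0.09 (SE 0.18 each). None of the 3 passed the test.

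KRAB zinc finger genes rose in larger number at 15 and 30 min than at 5 min. Of the 34 with a KRAB match, 16 rose at 5 min, 23 at 15 min and 22 at 30 min. At each time 1 fell, and the median log2 fold changes were 0.73, 1.15 and 1.09. Of the 49 without a KRAB match, 31, 32 and 34 rose and 8, 5 and 4 fell, with medians of 1.32, 1.39 and 1.47. The shares that rose were 47.1%, 67.6% and 64.7% with the match and 63.3%, 65.3% and 69.4% without. Among all genes tested 28.7%, 29.8% and 32.1% rose and 26%, 24.6% and 23.8% fell. As the pattern can miss diverged domains, the group without the match may hold KRAB genes. The difference between the groups was not tested. From 5 to 30 min 8 KRAB members (23.5%) and 4 of the 49 others (8.16%) rose, beside 5.88% of all genes tested. Of the 49 others, 3 (6.12%) fell, beside 6.52% of all genes tested. None of the KRAB members fell in edgeR's quasi-likelihood test or in DESeq2, with 1 lower at an unadjusted p under 0.05. The median spans of the groups were close, 38.8 kb with the KRAB match and 42.1 kb without, while the ranges were 8.76 to 122 kb and 1.00 to 485 kb. Among genes of 25 to 100 kb, 14 of 23 KRAB members and 11 of 18 others rose at 5 min, and 1 and 2 fell. Under 25 kb, 2 of 10 KRAB members rose and 0 fell at 5 min, against 4 and 6 of 14 others, and the medians were 0.19 and -0.15. At 15 min the medians under 25 kb were 0.97 and 0.17. Among all protein-coding genes tested, 30.3% rose and 21.6% fell at 5 min in the class of 25 to 100 kb. Under 25 kb these shares were 6.15% and 46.6%.

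ZNF12, a KRAB factor with 15 fingers, had the largest rise of the KRAB group, on a 0 min base of few counts. It was listed at 15.7 and 0 CPM at 0 min, 54.3 and 61.5 at 5 min, 46.5 and 39.7 at 15 min, and 76.9 and 77.5 at 30 min, with a log2 fold change of 3.14 at 30 min (SE 0.46, adjusted p = 4.19e-07). ZNF431, a chromosome 19 KRAB gene, had 37.5 and 12.4 CPM at 0 min, 120 and 131 at 5 min, 127 and 141 at 15 min, and 88.9 and 105 at 30 min. ZNF714, another chromosome 19 gene, had 87.0 and 61.8 CPM at 0 min, 176 and 204 at 5 min, 193 and 201 at 15 min, and 149 and 185 at 30 min, a rise of 1.34 at 5 min (SE 0.22, adjusted p = 3.73e-06). ZNF431 and ZNF714 share 3.99% and 4.75% of their 50-base windows with other genes, so part of their counts is uncertain. Of the 24 chromosome 19 members, 15 rose at 5 min, 20 at 15 min and 18 at 30 min, and 1 fell at each time, with medians of 1.12, 1.61 and 1.31, against 0.86, 1.13 and 1.28 over the 59 members elsewhere.

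ZNF429, a KRAB gene of the same chromosome, was the only member to rise at 5 min and rise again from 5 to 30 min. It had 19.3 and 18.5 CPM at 0 min, 37.8 and 40.3 at 5 min, 87.3 and 84.8 at 15 min, and 50.4 and 104 at 30 min, with log2 fold changes of 1.04 (SE 0.39) at 5 min and 0.97 (SE 0.30, adjusted p = 0.0261) from 5 to 30 min. Its 30 min cultures differed by more than any others of the gene. ZNF274, which recruits SETDB1 to chromatin, had means of 13.3 ± 5.18, 29.1 ± 12.8, 61.3 ± 6.19 and 51.0 ± 2.59 CPM at the 4 times, with its highest value at 15 min, and rose by 1.22, 2.23 and 1.97. ZNF429, ZNF431 and ZNF274 were named after their values were seen.

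A set of 8 members was not called at 5 min and rose from 5 to 30 min (ZNF16, ZNF3, ZNF426, ZNF557, ZNF620, ZNF689, ZNF7 and ZNF830). The KRAB match is carried by 6 of them, beside 34 of the 83 members. All but ZNF620 (41.6 kb) span under 25 kb, a class in which 12.6% of all protein-coding genes tested rose from 5 to 30 min. The share of all genes with the pattern of these 8 was not computed.
ZNF689 had 39.9 and 54.1 CPM at 0 min, 66.1 and 38.9 at 5 min, 54.9 and 69.8 at 15 min, and 150 and 111 at 30 min. It was high only at the last time, with log2 fold changes of 1.48 against 0 min (SE 0.28, adjusted p = 3.44e-05) and 1.35 against 5 min (SE 0.26, adjusted p = 0.000626). ZNF557 had 8.46 and 18.5 CPM at 0 min, 22.4 and 25.4 at 5 min, 54.3 and 55.4 at 15 min, and 49.2 and 57.8 at 30 min, so its step lay between 5 and 15 min. ZNF7 had 52.0 and 34.0 CPM at 0 min, 21.2 and 33.2 at 5 min, 56.9 and 63.6 at 15 min, and 76.9 and 73.2 at 30 min, a log2 fold change of 1.41 from 5 to 30 min (SE 0.29, adjusted p = 0.00126). Without culture 2 at 5 min the call of ZNF689 from 5 to 30 min was lost (0.98, adjusted p = 0.0519). That of ZNF557 was lost in 4 of 8 fits that left out a culture, either culture of 5 or 30 min, and in DESeq2 (adjusted p = 0.0804). ZNF620 (1.06, SE 0.35, adjusted p = 0.0429) lost its call in 5 such fits and with RLE scaling (adjusted p = 0.0603), DESeq2 (adjusted p = 0.156) and the replicate block (adjusted p = 0.0558).

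ZNF703, ZNF24 and ZNF92 were lower at 5 min than at 0 min and rose afterwards. ZNF703, a cofactor without a classical finger that is amplified in luminal breast cancer, had 42.3 and 41.7 CPM at 0 min, 29.5 and 9.89 at 5 min, 25.9 and 29.4 at 15 min, and 76.3 and 67.0 at 30 min. It was the only member called in opposite directions against 0 min, at -1.21 for 5 min (SE 0.40, adjusted p = 0.0109) and 0.77 for 30 min (SE 0.33, adjusted p = 0.0499). The first call was lost without culture 2 at 5 min (-0.49), with total counts (-0.48) and with only 4 cultures, where the value stayed at -1.17 (adjusted p = 0.0577). The second was lost with RLE scaling, DESeq2, the replicate block, 1 library per cDNA, only 4 cultures, or without either culture of 0 or 30 min, with values of 0.60 to 0.89 in those fits. Its rise from 5 to 30 min was 1.98 (SE 0.36, adjusted p = 0.000251).
ZNF24 had 490 and 434 CPM at 0 min, 282 and 264 at 5 min, 326 and 345 at 15 min, and 488 and 553 at 30 min. It fell by 0.76 at 5 min (SE 0.18, adjusted p = 0.000441) and by 0.46 at 15 min (SE 0.17, adjusted p = 0.0237), and rose by 0.93 from 5 to 30 min (SE 0.17, adjusted p = 0.000344). With total counts the 5 min value was -0.03 and the 15 min value turned to 0.31, and the 15 min call was also lost in 5 of 8 fits that left out a culture. ZNF92, a KRAB gene, had 41.1 and 32.4 CPM at 0 min, 11.8 and 25.4 at 5 min, 44.6 and 48.6 at 15 min, and 45.0 and 58.4 at 30 min. Its fall at 5 min (-0.91, SE 0.38, adjusted p = 0.0445) was lost in 5 of the other settings and in 6 fits that left out a culture, and its rise from 5 to 30 min was 1.39 (SE 0.34, adjusted p = 0.00622), lost without culture 1 at 5 min (1.01) or culture 2 at 30 min (1.20).

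**Figure D3:**
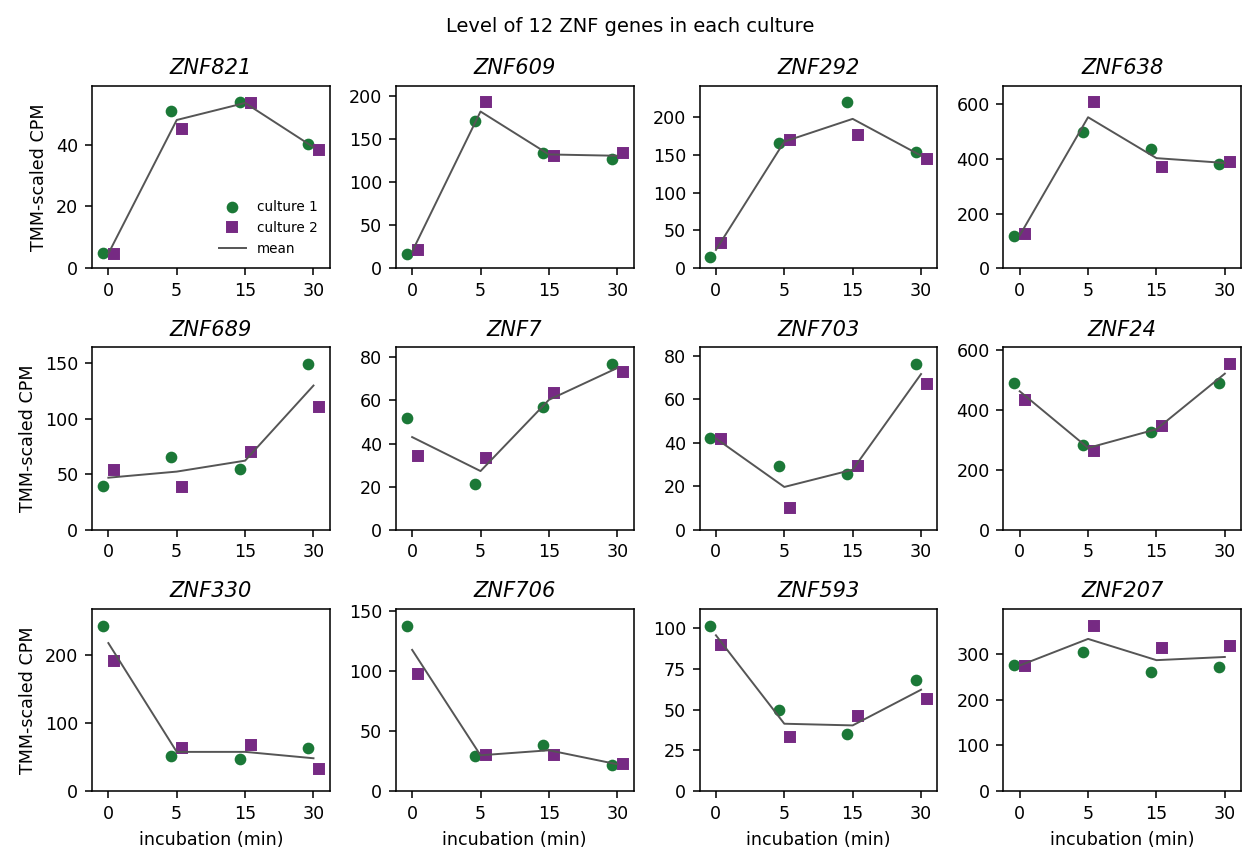
TMM-scaled CPM of 12 ZNF genes in the 2 cultures of each time (points) with the mean (line), over incubation times drawn at even spacing. The top row is low at 0 min and high later, ZNF689, ZNF7, ZNF703 and ZNF24 have their highest mean at 30 min, ZNF330, ZNF706 and ZNF593 are highest at 0 min, and the ZNF207 cultures of 0 min lie among those of 15 and 30 min.

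The 4 members that fell at all later times encode proteins of 76 to 320 residues, below the members' median of 603, and ZNF146 is the one with more than 1 finger match. ZNF330, a nucleolar protein, had 243 and 192 CPM at 0 min, 51.9 and 63.6 at 5 min, 47.2 and 68.4 at 15 min, and 63.7 and 33.2 at 30 min. The log2 fold changes were -1.90 (SE 0.27, adjusted p = 1.98e-07), -1.92 (SE 0.26) and -2.17 (SE 0.26), and with total counts they were -1.17, -1.15 and -1.29, all still called. ZNF706, a protein of 76 residues with 1 finger, had 138 and 97.3 CPM at 0 min, 29.5 and 30.4 at 5 min, 38.1 and 30.1 at 15 min, and 22.2 and 22.7 at 30 min. Its log2 fold changes were -1.98 (SE 0.30, adjusted p = 9.56e-07), -1.79 (SE 0.29) and -2.39 (SE 0.30), and with total counts -1.25, -1.02 and -1.52, also called. It shares 1.65% of its 50-base windows with other genes.
ZNF593, which takes part in the maturation of the large ribosomal subunit, had 102 and 89.6 CPM at 0 min, 49.6 and 33.2 at 5 min, 34.9 and 45.8 at 15 min, and 67.9 and 56.6 at 30 min. The 30 min cultures lay between those of 0 min and the others, with log2 fold changes of -1.25 (SE 0.29, adjusted p = 0.000425), -1.25 (SE 0.28) and -0.62 (SE 0.27, adjusted p = 0.0464), and with total counts the last value turned to 0.25 and the other 2 lost their call (-0.51 and -0.48). The 30 min call was also lost in 6 of 8 fits that left out a culture. ZNF146, which consists of little besides its 10 fingers, had 129 and 120 CPM at 0 min, 62.5 and 81.2 at 5 min, 93.1 and 78.0 at 15 min, and 76.9 and 94.1 at 30 min, a fall of 0.78 at 5 min (SE 0.24, adjusted p = 0.00623), which was -0.05 with total counts, while the values at 15 and 30 min (-0.55 each) turned to 0.23 and 0.33 and were lost in 8 and 7 fits that left out a culture. ZNF589, a KRAB gene, was the one whose cultures overlapped when called, at 54.4 and 105 CPM at 0 min against 39.4 and 54.7 at 15 min (-0.74, SE 0.30, adjusted p = 0.0371), a value that total counts turned to 0.042. It had 36.0 and 33.8 CPM at 30 min, with a log2 fold change of -1.16 (SE 0.31, adjusted p = 0.00157) that was lost without culture 2 at 0 min (-0.61).

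Promoters of 71 members were found in the RefSeq promoter table (GRCh38.p14, 250 bases before to 50 after the start). A set of 7 motifs was searched on both strands, and matches may overlap: the GC box, the ETS core, the cAMP response element (CRE), the TATA box, the E-box, the NRF1 core and the YY1 core. The ETS core, spelled CCGGAAG, was present in 42.3% of the members' promoters, in 21.4% of 7731 promoters of genes tested here and in 10.3% of 35116 promoters in the table. The CRE, spelled TGACGTCA, was present in 12.7%, 3.8% and 1.85% of the same sets. For the GC box, spelled GGGCGG, the shares were 66.2%, 71.9% and 45%. The NRF1 core, spelled GCATGCGC, was present in 5.63%, 6.01% and 3.05%. The YY1 core, spelled AAGATGGC, was present in 8.45%, 6.35% and 2.89%. Shares of the TATA box, spelled TATAAA, were 9.86%, 4.99% and 11.5%. Those of the E-box, spelled CACGTG, were 5.63%, 10.8% and 7.26%. Within the members the ETS core was found in 17 of 41 that rose at 5 min, 3 of 6 that fell and 10 of 24 not called. The CRE was found in 4, 2 and 3 of them. The 120 bases before the start are shown for 2 genes that fell and 2 that rose. They run 5′ to 3′ on the strand of the gene, with every motif searched in capitals. The choice does not stand for the members, since the 2 shown that fell are the 2 of 6 with a CRE. In the same stretch ZNF821, which rose, and ZNF689, not called at 5 min, had none of the motifs. That of ZNF24, which fell at 5 min, had a GC box and an ETS core.
ZNF330 promoter, chr4:141220775-141220894, plus strand: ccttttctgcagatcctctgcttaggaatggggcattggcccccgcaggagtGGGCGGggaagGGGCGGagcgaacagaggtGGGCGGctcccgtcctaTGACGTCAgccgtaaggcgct
ZNF593 promoter, chr1:26169788-26169907, plus strand: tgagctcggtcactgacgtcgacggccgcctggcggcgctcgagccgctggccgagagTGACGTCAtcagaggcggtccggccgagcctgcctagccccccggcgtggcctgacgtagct
ZNF609 promoter, chr15:64460458-64460577, plus strand: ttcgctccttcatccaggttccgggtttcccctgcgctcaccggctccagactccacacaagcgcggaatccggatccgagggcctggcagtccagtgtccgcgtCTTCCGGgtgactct
ZNF12 promoter, chr7:6706948-6707067, minus strand: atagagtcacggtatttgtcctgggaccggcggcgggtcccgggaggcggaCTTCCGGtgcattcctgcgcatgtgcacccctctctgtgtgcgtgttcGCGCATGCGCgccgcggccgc
ZNF330 has 3 GC boxes and a CRE and ZNF593 a CRE alone. In ZNF609 and ZNF12 the ETS core lies on the other strand, and ZNF12 also has a pair of overlapping NRF1 matches. In the whole set both the ETS core and the CRE occurred among members that rose and among members that fell.

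Gene span, from the first to the last annotated base with introns, was the annotated feature most closely related to the members' changes among the 3 compared (span, exonic length and finger number). The spans come from GENCODE 29 on GRCh38, while the counts were made on hg19. Of the 18 members of at least 100 kb, 16 rose at 5 min with a median log2 fold change of 2.29, and none fell in edgeR's test, in DESeq2 or at an unadjusted p under 0.05. Of the 41 members of 25 to 100 kb, 25 rose and 3 fell, with a median of 1.09. Of the 24 members under 25 kb, 6 rose and 6 fell, with a median of 0.11. At 15 min 12 of these short genes rose and 4 fell, and at 30 min 15 rose and 3 fell, with medians of 0.69 and 0.83. From 5 to 30 min 9 of the 24 short genes rose, against 3 of 41 and 0 of 18 in the longer classes. In the longest class 2 fell and none rose at an unadjusted p under 0.05 or in DESeq2. Among all protein-coding genes tested, 62.5%, 30.3% and 6.15% rose at 5 min, from the longest class to the shortest, and 5.1%, 21.6% and 46.6% fell. In the shortest class 9.35% rose and 43.5% fell at 15 min, and 14.7% and 39.9% at 30 min. From 5 to 30 min 0.874%, 2.13% and 12.6% rose, again from longest to shortest, and 10.4%, 5.02% and 6.87% fell.

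The same ordering held for protein-coding genes as a whole. At 5 min the median was 1.55 over 2175 genes of at least 100 kb, 0.25 over 3943 genes of 25 to 100 kb and -0.94 over 3595 shorter genes. The members' medians in these classes (2.29, 1.09 and 0.11) were higher in each, a difference that was not tested and that includes the choice of members by count. Across genes, Spearman's rho between span and the log2 fold change was 0.60 at 5 min, 0.46 at 15 min and 0.39 at 30 min over the 83 members, and 0.56, 0.51 and 0.42 over 9713 protein-coding genes. From 5 to 30 min it was -0.60 over the members and -0.28 over the protein-coding genes. Genes of 1 library set are not independent replicates, and these are descriptions. With finger number rho was 0.05, 0.20 and 0.14 against 0 min, and with exonic length 0.28, 0.21 and 0.17.

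**Figure D4:**
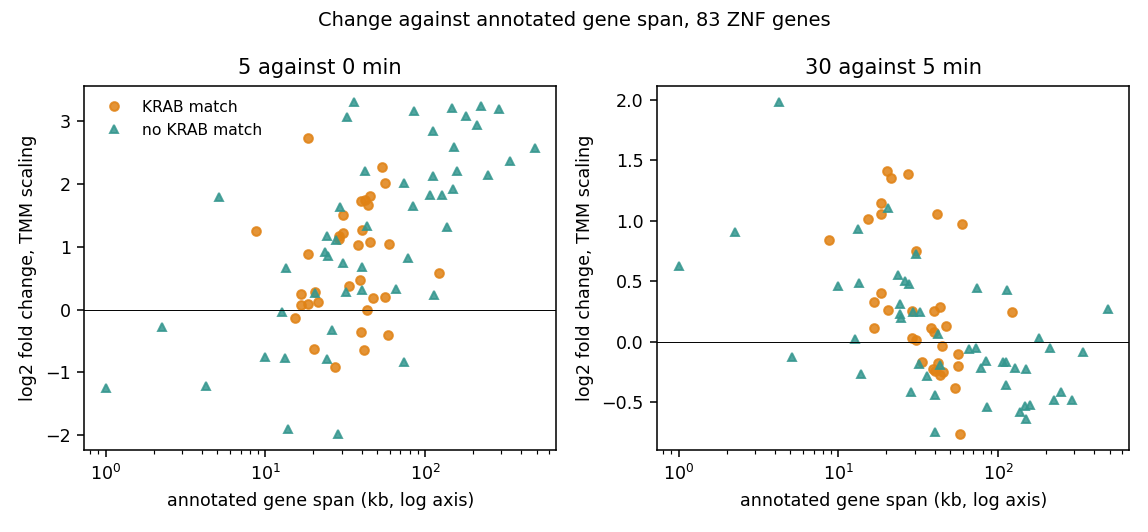
Log2 fold change of the 83 ZNF genes against annotated gene span in kb on a log axis, for 5 against 0 min on the left and 30 against 5 min on the right; circles are members with a KRAB match and triangles those without. The points climb from left to right at 5 min (rho 0.60) and descend from 5 to 30 min (rho -0.60).

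Genes of the corepressor machinery used by KRAB proteins were called in both directions, in shares near those of all genes tested. Of 37 genes tested from a list of 38 (TRIM28, SETDB1, HP1 proteins, the NuRD and HUSH complexes and their partners), 12 rose and 11 fell at 5 min, 10 rose and 12 fell at 15 min, and 11 rose and 9 fell at 30 min, with median log2 fold changes of -0.22, -0.17 and 0.24. The shares that rose were 32.4%, 27% and 29.7%, beside 28.7%, 29.8% and 32.1% of all genes, and those that fell were 29.7%, 32.4% and 24.3%, beside 26%, 24.6% and 23.8%. TRIM28, the scaffold that KRAB domains bind, had means of 54.6 ± 11.7, 51.5 ± 13.9, 39.9 ± 2.53 and 80.9 ± 22.3 CPM at the 4 times and passed no test. SETDB1, the H3K9 methyltransferase it recruits, had 34.9 ± 3.14, 46.4 ± 7.26, 62.8 ± 0.145 and 50.1 ± 8.19 CPM and rose at 15 min only (0.85, adjusted p = 0.0178). SUMO2, whose protein is attached to TRIM28, fell by 2.31 at 5 min, from 1907 ± 154 to 386 ± 65.1 CPM, and CBX3, an HP1 protein, fell by 1.65, from 717 ± 1.06 to 232 ± 61.0 CPM. With total counts the list's falls became 6, 6 and 3, and its rises at 15 and 30 min 19 and 23.

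Cys2-His2 factors with other names rose more often than they fell. Of 94 tested from a list of 118, 34 rose and 5 fell at 5 min, 37 rose and 3 fell at 15 min, and 48 rose at 30 min, with medians of 0.56, 0.80 and 1.16. The shares that rose were 36.2%, 39.4% and 51.1%, beside 28.7%, 29.8% and 32.1% of all genes, and the shares that fell at 5 and 15 min were 5.32% and 3.19%, beside 26% and 24.6%. None fell at 30 min in edgeR's test, 1 did in DESeq2 and 1 was lower at an unadjusted p under 0.05. ZEB2, a repressor of epithelial genes, rose by 3.79 at 5 min, from 25.3 ± 5.22 to 358 ± 41.4 CPM (adjusted p = 4.66e-14). ZEB1, its paralogue, rose by 1.99, from 56.5 ± 36.3 to 231 ± 41.1 CPM (adjusted p = 4.51e-08).

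A smaller share of the ZNF symbols under 400 counts rose than of the members, a contrast that the choice of members by count helped to fix. Genes with fewer counts are also harder to call, and at 5 min the test called neither direction for 178 of these symbols. Of the 232 tested, 32 rose and 22 fell at 5 min, 53 and 15 at 15 min, and 61 and 10 at 30 min, which is 13.8%, 22.8% and 26.3% that rose, with medians of 0.20, 0.47 and 0.79. Over all 315 ZNF symbols tested, with no limit at 400 counts, 79 rose and 31 fell at 5 min, 108 and 21 at 15 min, and 117 and 15 at 30 min, with medians of 0.38, 0.71 and 0.86. The shares that rose, 25.1%, 34.3% and 37.1%, lay below, above and above those of all genes tested. Among the 83 members those shares were 56.6%, 66.3% and 67.5%. Of the 3 members at that limit, ZNF821 rose as given above, ZNF428 had log2 fold changes of -0.03, 0.01 and -0.01 (SE 0.34 to 0.35), and ZNF620 passed no test against 0 min.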

How the data were processed

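Counts per gene of 32 RNA-seq libraries from HEK293 cells were deposited by the authors as 1 table of whole-number counts. The submitters' processing notes name STAR and hg19. Whether counts are reads or molecules, how strand was used and the STAR version are not given here. The members, lists and groupings were chosen with earlier results of these data known. The 4 libraries of a culture were added up, since the 16 library pairs of 1 cDNA differed less than counting error alone gives (chi-square over its degrees of freedom 0.327 to 0.594, against 1.14 to 2.29 in 32 pairs of different cDNA). Libraries held 188686 to 381471 counts. Header and labels give 4 libraries of culture 2 at 0 min different tagmentation numbers, which changes no sum.

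Times were compared with edgeR 4.0.16 (R 4.3.3), quasi-likelihood, TMM scaling and filterByExpr (10439 genes), in 1 fit over 8 cultures with 4 residual degrees of freedom, two-sided, with Benjamini-Hochberg adjustment at 0.05, after the code was tested on simulated data. The biological coefficient of variation was 15.3%. Alternatives were RLE scaling, total counts, no filter, DESeq2 1.42.0, the replicate block, 1 library per cDNA, only the 4 cultures compared, each culture left out, and limits of 200 and 800 counts. Levels are TMM-scaled CPM computed from the deposited counts, with mean and SD of 2 cultures. Levels were not divided by gene length, so they are not compared between genes. Same-numbered cultures did not deviate together (correlations -0.0324 to 0.0809), so numbers were not taken as pairs.

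All 83 members matched GENCODE 29, ZNF724P through a RefSeq synonym. Fingers were counted as 2 residues between the cysteines, 12 between the pairs and 3 to 5 between the histidines, in the longest GENCODE protein, a source used in place of the RefSeq proteins first planned. Genes are named by rule: the 8 most counted members, the 5 largest called changes in each direction per comparison whose cultures do not overlap, the 3 on either side of the count limit, members called in opposite directions, TRIM28, SETDB1 and the 2 most counted genes of each list; others were chosen after their values were seen.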

Additional observations from a re-analysis of the deposited data

How the results depend on the processing

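Of 81 called values of the 31 ZNF genes named by rule, 78 kept their call with RLE scaling, 75 with DESeq2, 77 with the replicate block, 77 with only the 4 cultures compared, 73 with 1 library per cDNA, 72 with no filter and 66 with total counts, where 10 lost it and 5 changed sign: ZNF24 at 15 min (0.31), ZNF593 at 30 min (0.25), ZNF146 at 15 and 30 min (0.23 and 0.33) and ZNF589 at 15 min (0.042). Leaving out a culture lost 18 of the 81 in at least 1 fit and reversed 0.

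Total counts gave 2 falls among the members in each comparison with 0 min and 0 from 5 to 30 min, with medians of 1.77, 2.09, 2.16 and 0.18. No filter gave 3 falls at 15 min, 3 at 30 min and 0 from 5 to 30 min. RLE scaling gave 6 falls from 5 to 30 min, and 1 library per cDNA gave 3 at 30 min and 1 from 5 to 30 min. A limit of 800 counts (31 members) gave 24, 24, 25 and 2 rises, 3 falls at 5 min, 2 at 15 and 1 at 30 min, with medians of 1.81, 1.63, 1.66 and -0.16. A limit of 200 (161 symbols) gave 11 falls at 15 min, 87 rises and 10 falls at 30 min, and medians of 0.66 at 5 min, 0.91 at 15 min and 0.18 from 5 to 30 min. The replicate block gave 46, 54, 55 and 11 rises and 9, 5, 4 and 3 falls. The numbers do not pair the cultures, and the block changed no other count by over 1.5 times. The summed level was 4178, 7528, 7701 and 7732 CPM on the TMM scale.

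In the corepressor list, total counts gave 6 falls at 5 min, 19 rises and 6 falls at 15 min and 23 rises and 3 falls at 30 min. DESeq2 gave 6 rises at 15 min, 6 at 30 min and 0 from 5 to 30 min, only 4 cultures 6 rises at 30 min, and RLE scaling 0 rises and 5 falls from 5 to 30 min. In the other Cys2-His2 list, total counts gave 55, 62, 77 and 11 rises and 0, 0 and 1 falls (5, 15 and 5 to 30 min). DESeq2 gave 31 rises and 1 fall at 30 min and 2 rises from 5 to 30 min. One library per cDNA gave 3 falls at 5 min, 1 at 30 min and 11 rises from 5 to 30 min, only 4 cultures 2, 2 and 17, RLE scaling 1 fall at 30 min, and no filter 11 rises and 1 fall from 5 to 30 min.

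Leaving out 1 culture at a time (8 fits) gave, for 5, 15 and 30 min against 0 min and 30 against 5 min, 38 to 48, 48 to 55, 49 to 56 and 5 to 13 rises and 6 to 10, 3 to 5, 3 to 5 and 0 to 5 falls among the members, with medians of 0.89 to 1.30, 1.21 to 1.58, 1.17 to 1.46 and -0.021 to 0.16. In the corepressor list it gave 9 to 12, 7 to 10, 6 to 12 and 0 to 4 rises and 9 to 11, 9 to 13, 7 to 11 and 1 to 3 falls. In the other Cys2-His2 list it gave 30 to 34, 29 to 37, 37 to 53 and 1 to 14 rises and 2 to 6, 1 to 3, 0 to 1 and 0 to 3 falls.

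Causes of these differences were not tested. Where a fit leaves a time with 1 culture, that culture is assumed to vary like the others. With 2 cultures per time and 400 to 4018 counts per member, a missed call does not show that a member did not change.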

Other observations

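The members given here were chosen after their values were seen. ZNF473, whose protein takes part in the 3′ end processing of histone RNA, had 31.4 and 10.8 TMM-scaled CPM at 0 min, 41.3 and 53.0 at 5 min, 70.5 and 67.7 at 15 min, and 63.7 and 69.5 at 30 min, and rose by 1.11, 1.64 and 1.59 on the log2 scale at the 3 later times (SE 0.37, 0.35 and 0.35, edgeR). Every later culture lay above both at 0 min, and the cultures at 15 and 30 min overlapped. ZNF451, a SUMO ligase, had 48.3 and 57.1 CPM at 0 min and 129 to 165 CPM in every later culture, with log2 fold changes of 1.65, 1.41 and 1.49 (SE 0.23 each). Exons of ZNF473 and of ZNF451 overlap exons of a gene on the opposite strand. ZNF281, a factor studied in pluripotent cells, had 31.4 and 37.1 CPM at 0 min, 149 and 91.1 at 5 min, 90.5 and 54.0 at 15 min, and 114 and 102 at 30 min, and rose by 1.79, 1.09 and 1.66 on the log2 scale. Its span is 5.12 kb. It was 1 of 6 members under 25 kb that rose at 5 min.

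ZNF830, a splicing-associated protein whose annotated span of 2.25 kb equals its exonic length, had 77.4 and 91.1 CPM at 0 min, 66.1 and 71.4 at 5 min, 98.9 and 113 at 15 min, and 122 and 136 at 30 min. Its log2 fold changes were -0.28 at 5 min and 0.34 at 15 min, neither called, then 0.62 at 30 min (SE 0.22, edgeR adjusted p = 0.0183) and 0.90 from 5 to 30 min (SE 0.22, edgeR adjusted p = 0.00513). The 13 members called at none of the 3 later times against 0 min were ZNF195, ZNF207, ZNF280C, ZNF326, ZNF37A, ZNF397, ZNF428, ZNF561, ZNF562, ZNF620, ZNF678, ZNF680 and ZNF684, and their spans ran from 12.7 kb in ZNF428 to 114 kb in ZNF678. Of these, ZNF326 fell and ZNF620 rose from 5 to 30 min.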
